A study of Homo sapiens with 6 samples.

Results

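The alpha-arrestin genes ARRDC1, ARRDC2, ARRDC3, ARRDC4 and TXNIP, and the transcription factor genes MLX, MLXIP and MLXIPL that connect 2 of them to glucose, were followed in colon carcinoma cells given the microRNA miR-224. The members are all probe sets that the array annotation assigns to only one of these 8 symbols, which gives 8 of 19775 genes and 19 of the 54613 probe sets that are not array controls. ARRDC4 was chosen by its higher level in miR-224 than in control cells in an earlier reading of experiments 2 and 3 of these arrays, and the other 7 genes were added as its relatives and regulators. Differences between miR-224 and control cells are therefore given for the members as a description, with no p of their own.

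HCT116, an established human colon carcinoma line, was transfected with miR-224 precursors (3 arrays) or with control oligos (3 arrays), with both at 50 nM and RNA extracted at 24 h. The series describes the arrays as pairs from 3 independent experiments, so arrays of equal number were compared with each other. The precursor's arm, the sequence of the control oligos and the level of miR-224 reached in the cells were not analysed here. Values are processed Affymetrix expression levels, read as log2, so that 1 unit stands for a doubling, and the number of arrays limits their precision.

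Alpha-arrestins are adaptor proteins that join membrane proteins to ubiquitin ligases of the NEDD4 family and so guide endocytosis and sorting. TXNIP, which also binds thioredoxin, and ARRDC4 restrain glucose uptake, and both genes are known targets of MondoA (encoded by MLXIP) and ChREBP (encoded by MLXIPL). These factors sense phosphorylated glucose and bind DNA as dimers with MLX at carbohydrate response elements, which are made of spaced E-boxes.

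The 2 mature arms of miR-224 are shown because the cells received this microRNA. They come from RefSeq on GRCh38.p14, minus strand of chromosome X, and capitals mark the seed, bases 2 to 8.
hsa-miR-224-5p: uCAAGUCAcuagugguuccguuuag
hsa-miR-224-3p: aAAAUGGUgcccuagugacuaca

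The promoter windows of ARRDC4 and TXNIP, from 250 bases before to 50 after the transcription start, are shown because both are known glucose-response promoters. Capitals mark the E-box CACGTG, which reads the same on both strands, and the E-box-like element CACGAG on either strand. The ARRDC4 window is chr15:97960453-97960752 (plus strand) and the TXNIP window chr1:145996530-145996829 (minus strand), both from RefSeq on GRCh38.p14.
ARRDC4: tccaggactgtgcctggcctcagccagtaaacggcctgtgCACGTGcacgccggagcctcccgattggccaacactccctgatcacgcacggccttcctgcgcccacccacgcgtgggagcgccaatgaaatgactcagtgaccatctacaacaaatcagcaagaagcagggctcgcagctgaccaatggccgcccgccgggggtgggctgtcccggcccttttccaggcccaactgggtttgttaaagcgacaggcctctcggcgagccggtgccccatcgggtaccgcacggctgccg
TXNIP: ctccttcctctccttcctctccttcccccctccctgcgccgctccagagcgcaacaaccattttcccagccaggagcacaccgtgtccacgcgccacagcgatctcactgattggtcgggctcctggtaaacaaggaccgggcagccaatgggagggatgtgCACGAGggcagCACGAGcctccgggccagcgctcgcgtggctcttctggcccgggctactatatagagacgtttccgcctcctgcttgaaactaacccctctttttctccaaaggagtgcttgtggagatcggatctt

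In the TXNIP window 2 copies of CACGAG lie 5 bases apart, starting 88 and 77 bases before the transcription start. The spaced pair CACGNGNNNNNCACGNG, searched on both strands, was found in 20 of 35116 promoter windows (0.0570%), TXNIP among them, and in no other window of the members. This pattern has the 5-base spacing of the TXNIP pair, so nothing is read from the TXNIP match or its rarity. The lack of a match in the ARRDC4 window says only that this pattern is not in it. ARRDC4 had a single CACGTG, starting 210 bases before its start, and MLX had one starting 50 bases before its own. The E-box CACGTG occurs in 7.26% of all windows and CACGAG in 6.78%. The windows of ARRDC1, ARRDC2, ARRDC3, MLXIP and MLXIPL held neither, which says only that these letters are not in them.

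**Figure D1:**
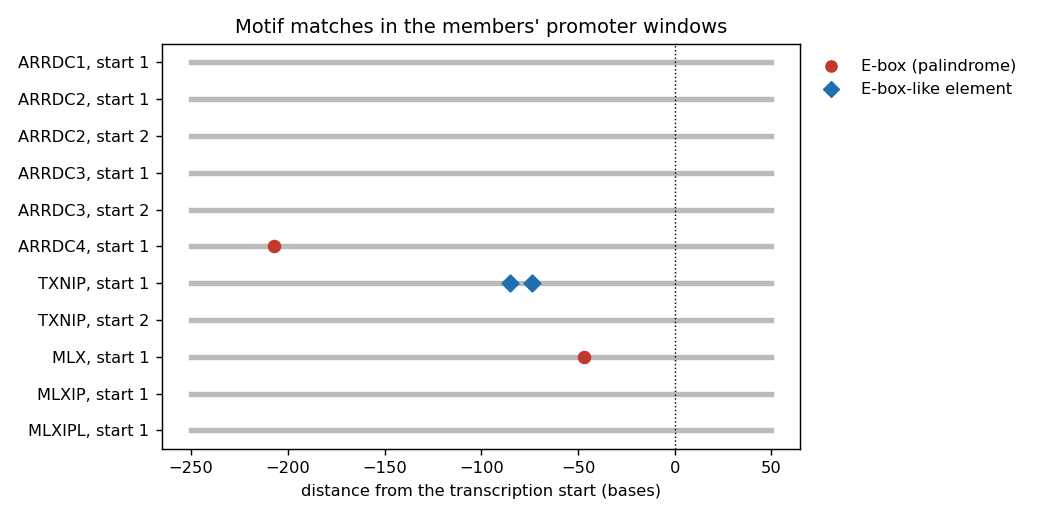
Each line is one of the 11 RefSeq promoter windows of the 8 genes, from 250 bases before to 50 after the transcription start (x axis, in bases). Circles mark the E-box in ARRDC4 and MLX, and diamonds the 2 E-box-like elements of TXNIP.

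ARRDC4 had the widest difference among the members' brightest probe sets, and it was seen in 2 of the 3 experiments. As ARRDC4 was chosen by experiments 2 and 3, neither this rank nor the difference there counts as support. Experiment 1, which took no part in that choice, gave a difference of -0.01. Its arrays had a low signal on the control probe set for the 5′ part of actin. That probe set read 4.14 to 4.42 there, against 12.3 to 12.5 in experiments 2 and 3. Whether this bears on the ARRDC4 difference was not tested. The one ARRDC4 probe set, 225283_at, read 7.24, 7.75 and 7.72 in miR-224 cells of experiments 1, 2 and 3. In control cells it read 7.25, 6.66 and 6.82. Both arrays of experiment 1 had nearly the same level, whereas in experiments 2 and 3 the miR-224 array lay above and the control array below that level. The groups therefore overlap through experiment 1 alone. The within-experiment differences were -0.01, 1.09 and 0.90, and their mean of 0.66 ± 0.19 (SE of the paired fit, n = 3) is a ratio of 1.58 between miR-224 and control cells. Without experiment 1 the mean difference was 0.99. A change in the share of cells with this RNA and a change in RNA per cell cannot be told apart in such bulk RNA.

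ARRDC3, an adaptor for the beta2-adrenergic receptor and other membrane cargo, was likewise higher in miR-224 cells in experiments 2 and 3 and not in experiment 1. Its probe set 224797_at read 5.57, 6.57 and 5.65 in miR-224 cells of experiments 1, 2 and 3, against 5.72, 5.93 and 4.96 in control cells. The differences were -0.15, 0.64 and 0.69, with a mean of 0.39 ± 0.17 (SE, n = 3), and 0.66 without experiment 1. The groups overlapped, since control cells of experiments 1 and 2 read above miR-224 cells of experiments 1 and 3.

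ARRDC2 and ARRDC1 stood close to their controls. ARRDC2, a less studied member of the family, read 7.03, 7.04 and 7.22 in miR-224 cells and 6.95, 7.16 and 7.18 in control cells. ARRDC1, which recruits ESCRT proteins to bud vesicles from the plasma membrane, read 6.74, 6.58 and 7.45 in miR-224 cells and 6.74, 6.91 and 7.40 in control cells (226405_s_at). The mean differences were 0.002 ± 0.10 for ARRDC2 and -0.09 ± 0.12 for ARRDC1 (SE, n = 3), and neither gene kept one sign over the experiments. The second ARRDC1 probe set, 234607_at, was dim and differed by 0.01 ± 0.13.

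On its brightest probe set TXNIP did not keep one sign over the experiments. All 3 TXNIP probe sets were faint on these arrays, and 2 of them lay below 3.48, the median level of all probe sets. The brightest, 201009_s_at, read 4.16, 4.29 and 4.14 in miR-224 cells of experiments 1, 2 and 3, against 4.0, 3.98 and 4.57 in control cells. It was higher in experiments 1 and 2 and lower in experiment 3, with a mean difference of 0.01 ± 0.15 (SE, n = 3). Of the dim ones, 201010_s_at differed by 0.04 ± 0.11 and 201008_s_at by -0.16 ± 0.10. The last of these was lower in every experiment, at 2.80, 2.69 and 2.83 in miR-224 cells against 2.91, 2.87 and 3.03 in control cells, and its groups did not overlap. Signals this low limit what can be said of TXNIP.

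**Figure D2:**
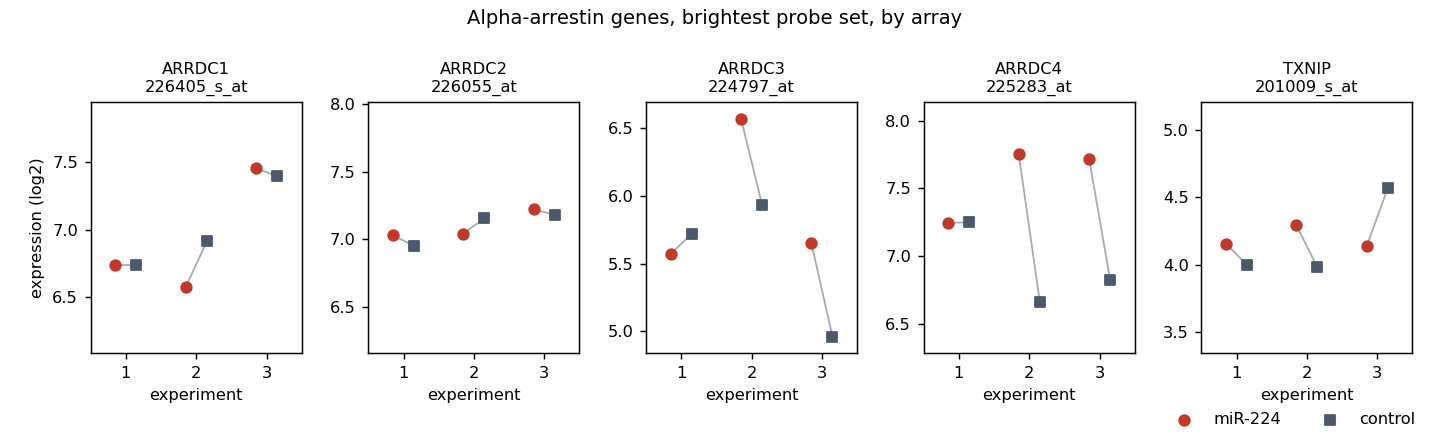
Log2 expression (y axis, same span in every panel) of the brightest probe set of each alpha-arrestin gene in experiments 1 to 3, with miR-224 cells as circles and control cells as squares joined by a line. ARRDC4 and ARRDC3 lie higher in miR-224 cells in experiments 2 and 3 and not in experiment 1.

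Among the regulators, MLXIP, which encodes MondoA, was lower in miR-224 cells on its brighter probe sets. Probe set 202519_at read 7.23, 7.41 and 7.21 in miR-224 cells of experiments 1, 2 and 3, against 7.54, 7.86 and 7.80 in control cells. Every miR-224 array lay below every control array, with differences of -0.31, -0.45 and -0.59 and a mean of -0.45 ± 0.11 (SE, n = 3), a ratio of 0.732. Probe set 225157_at read 7.0, 6.38 and 6.13 in miR-224 cells and 7.03, 6.68 and 6.80 in control cells, a mean difference of -0.34 ± 0.13 that came from experiments 2 and 3. The faint probe sets of MLXIP did not share one pattern. Probe set 211789_s_at, whose control value of 4.76 in experiment 2 stood far above its other values of 2.07 to 3.72, differed by -0.58 ± 0.23. Probe set 1554886_a_at differed by 0.16 ± 0.16, higher in experiments 1 and 2 and lower in experiment 3. With the mean of all 4 probe sets the MLXIP difference was -0.30.

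MLX, the shared dimer partner, had higher means on its 3 bright probe sets and differences of either sign on the others. Probe set 213708_s_at read 9.07, 8.12 and 8.29 in miR-224 cells of experiments 1, 2 and 3, against 8.90, 7.88 and 8.08 in control cells. The differences of 0.17, 0.24 and 0.21 were alike, with a mean of 0.21 ± 0.10 (SE, n = 3), and the groups overlapped because the level differed between experiments. Probe sets 217909_s_at and 217910_x_at differed by 0.17 ± 0.11 and 0.13 ± 0.12, while 210752_s_at, 231401_s_at and 1570347_at stood at -0.05, -0.04 and 0.15. The mean of all 6 probe sets gave 0.09. MLXIPL, which encodes ChREBP, read 5.87, 5.57 and 6.31 in miR-224 cells and 5.65, 5.58 and 6.30 in control cells (221163_s_at), so that the pairs of experiments 2 and 3 were nearly equal. Its mean difference was 0.08 ± 0.11.

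**Figure D3:**
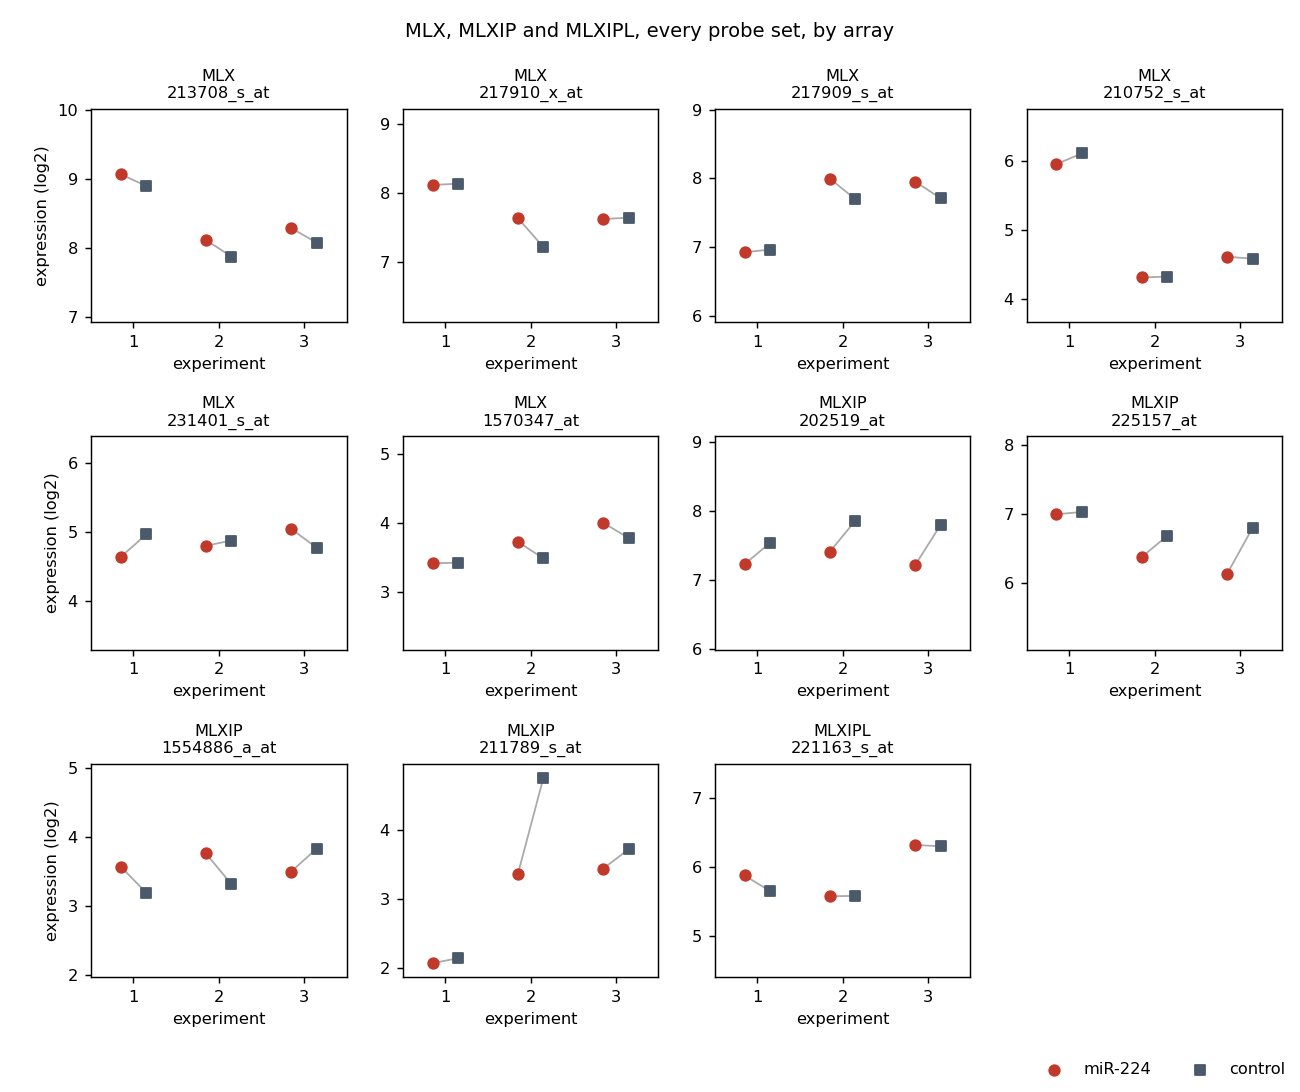
Log2 expression (y axis, same span in every panel) of all 11 probe sets of MLX, MLXIP and MLXIPL in experiments 1 to 3, with miR-224 cells as circles and control cells as squares. MLXIP 202519_at is lower in miR-224 cells in each experiment, and 4 MLX probe sets shift between experiment 1 and the other experiments.

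Over all 19 probe sets, 12 had a higher and 7 a lower mean in miR-224 cells, with a median difference of 0.014, beside 0.0054 over all probe sets. Lower values in all 3 experiments were found for 4 probe sets (202519_at, 225157_at and 211789_s_at of MLXIP and 201008_s_at of TXNIP), against a background of 14.8% of all probe sets. Higher values in all 3 were found for 1 (213708_s_at of MLX), against 16.5%. Groups that did not overlap were found for 2 probe sets, both lower in miR-224 cells, against 2.64% of all probe sets in that direction. The share of all probe sets in the other direction was not counted. With experiment as a block, limma called none of the 54613 probe sets at an adjusted p under 0.05 (0%), the members included, and 5352 of them (9.8%) had an unadjusted p under 0.05. As this contrast helped to choose the members, nothing is read from these counts.

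**Figure D4:**
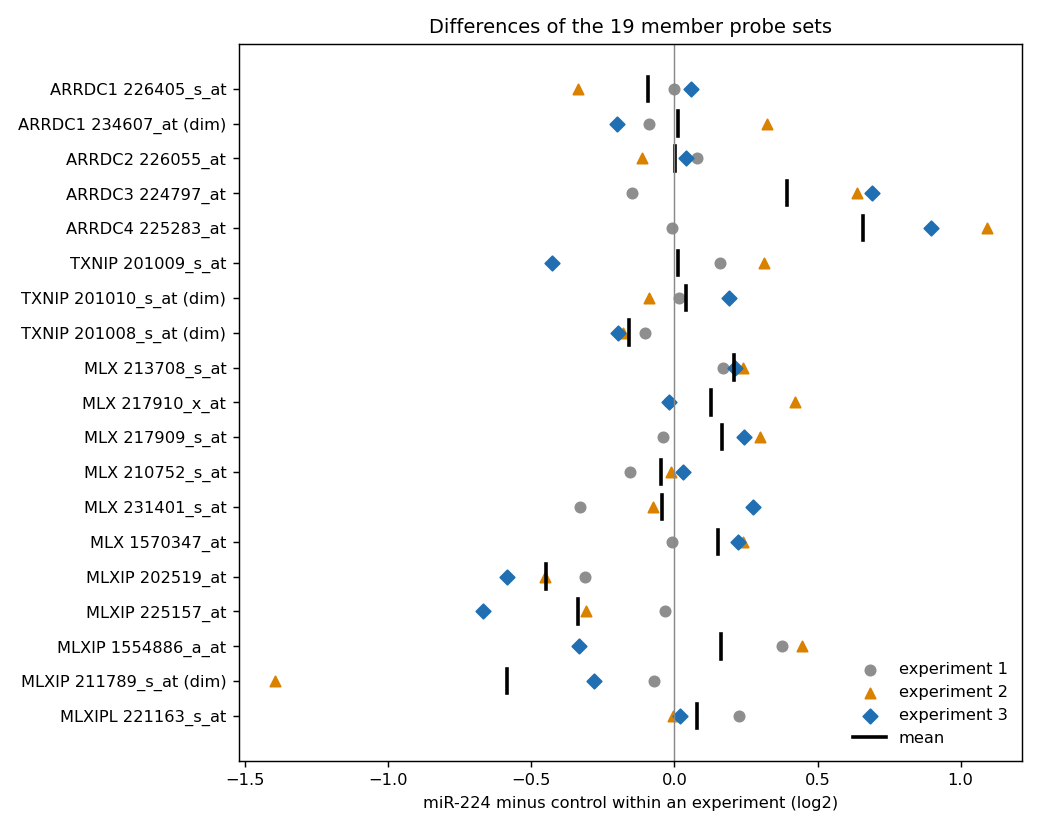
Each row is one of the 19 probe sets, with the miR-224 minus control difference on the log2 scale (x axis) in experiments 1, 2 and 3 as separate symbols and their mean as a bar. Probe sets marked dim lie below the median level of 3.48, and the values of ARRDC4 and ARRDC3 separate experiment 1 from experiments 2 and 3.

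The levels of several members also differed between the experiments, a contrast that took no part in choosing them. The arrays of experiment 1 stood apart from the other 4. The control probe set for the 5′ part of actin read 4.14 to 4.42 in experiment 1. It read 12.3 to 12.5 in experiments 2 and 3, while its 3′ partner read 12.4 to 12.5 on every array. Both groups share the low 5′ signal in experiment 1. Of the variance, 77.8% lay on the first principal component, but the places of the arrays on it were not recorded. Of the 19 member probe sets, 8 differed between experiments, against 28% of all probe sets. The test was limma's moderated F test with treatment as a covariate, at an adjusted p under 0.05 over all probe sets. The 28% is not matched for level, since 15 of the 19 lie at or above the median level of probe sets. Among probe sets at that level, tested alone, 13974 of 27307 passed, so the count of 8 does not mark the members as unusual.

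Of these 8, MLX supplied 4, of which 3 were highest and 1 was lowest in experiment 1. Probe set 210752_s_at averaged 6.03, 4.31 and 4.59 in experiments 1, 2 and 3 (limma adjusted p = 5.61e-05), and 213708_s_at averaged 8.99, 8.0 and 8.19 (adjusted p = 9.04e-04). In contrast, 217909_s_at averaged 6.95, 7.85 and 7.83 (adjusted p = 0.0018), lowest in experiment 1. The fourth, 217910_x_at, averaged 8.12, 7.42 and 7.63 (adjusted p = 0.019, and 0.070 after another quantile normalization). Probe sets of one gene thus gave opposite orders of the experiments. MLXIP 211789_s_at averaged 2.11, 4.06 and 3.58 (adjusted p = 0.0019). Without experiment 1 none of these 5 passed, with limma adjusted p from 0.31 to 0.97. The low 5′ control signal of experiment 1 moved with these values, and its part in them was not tested.

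ARRDC3, ARRDC1 and MLXIPL differed in another way. ARRDC3 averaged 5.65, 6.25 and 5.30 in experiments 1, 2 and 3 (limma adjusted p = 0.020), and MLXIPL 5.76, 5.57 and 6.31 (adjusted p = 0.0068). Both still differed between experiments 2 and 3 alone (adjusted p = 0.013 for ARRDC3 and 0.027 for MLXIPL), where 2.75% of all probe sets passed. The call for ARRDC3 was lost without experiment 2 (adjusted p = 0.27) or 3 (0.064), and that for MLXIPL without experiment 3 (0.42). ARRDC1 averaged 6.74, 6.75 and 7.43 (adjusted p = 0.0092), a call lost without experiment 3 (0.98) or 1 (0.0502). For ARRDC4, whose experiment means were 7.25, 7.21 and 7.27, the test gave a limma adjusted p of 0.98, since high miR-224 and low control values offset each other in experiments 2 and 3.

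The genes with a profile most like that of ARRDC4 over the 6 arrays were GNB1, RAB11FIP4, MSX1, P3H1 and ZFAND6. Likeness was the Euclidean distance between log2 levels centred on each gene's own mean, ranked over 9887 genes at or above the median level of genes (4.75). GNB1, a G protein beta subunit, was closest at a distance of 0.318, with differences of 0.003, 1.17 and 0.80 in experiments 1, 2 and 3, and ZFAND6, the fifth, lay at 0.550. For TXNIP the closest were EIF5B, MBNL2, TASOR, ACAP1 and KCNJ5, at distances of 0.136 to 0.186. As for TXNIP, the control array of experiment 3 read highest of the 6 arrays for each of these 5 genes. This shared peak comes with ranking them by likeness to TXNIP and is no separate result. The TXNIP profile is itself faint, with a mean level of 4.19.

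Genes around the arrestins were compared through 8 lists, with 1 probe set per gene and the paired limma fit over 19775 genes. No gene passed at an adjusted p under 0.05 (background 0%), 2169 had an unadjusted p under 0.05 (11%), and the median difference of all genes was 0.01. The smallest p among the listed genes were those of PFKFB3 and KLF11, both on the list of glucose-responsive targets of MondoA or ChREBP. PFKFB3, which makes the activator of glycolytic phosphofructokinase, read 7.46, 5.29 and 5.40 in miR-224 cells of experiments 1, 2 and 3, against 7.90, 6.62 and 6.74 in control cells. Its differences of -0.44, -1.32 and -1.33 had a mean of -1.03 ± 0.17 (SE, limma adjusted p = 0.14). KLF11, a Krüppel-like repressor, read 4.45, 3.48 and 4.54 in miR-224 cells and 5.24, 4.23 and 5.20 in control cells. Its differences were nearly equal, at -0.79, -0.75 and -0.66 (mean -0.73 ± 0.10, limma adjusted p = 0.105), but a dimmer second probe set stood at -0.04. The brighter probe set, with a mean level of 4.52, also lies below the median level of genes (4.75).

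PFKFB3 and KLF11 fell in both other limma fits that called any gene, those that let the variance follow intensity and used robust variances (adjusted p = 0.018 and 0.028, background 0.283%) and with experiments 2 and 3 only (0.0016 and 0.037, background 0.88%). Of the 22 glucose-responsive targets, 8 had a higher and 14 a lower mean, with a median of -0.06. ACLY, the cytosolic source of acetyl-CoA for lipid synthesis, stood at -0.46 ± 0.13 (SE), lower on all 3 of its probe sets, and FGF21, a secreted metabolic hormone, at 0.29 ± 0.10 at a low level (limma adjusted p = 0.27 and 0.35). HK2, which phosphorylates glucose, stood at 0.27 ± 0.12, and LDHA and KLF10 at 0.02 and -0.15.

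The genes listed for glucose uptake and phosphorylation showed small differences. Of 15 measured genes, 9 had a higher and 6 a lower mean, with a median of 0.02, and SLC2A1, the transporter GLUT1 that TXNIP and ARRDC4 act on, stood at 0.01, 0.18 and 0.16 in experiments 1, 2 and 3. The gene with the smallest p was SLC2A13 at -0.29 ± 0.12 (SE, limma adjusted p = 0.42), followed by HK3, SLC2A6 and G6PC3 at 0.21, -0.19 and -0.13. A second bright probe set of G6PC3 stood at 0.16.

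In the thioredoxin system, 8 of 16 genes had a higher and 8 a lower mean, with a median of 0.004. Thioredoxin itself, TXN, stood at -0.03 ± 0.11. MSRA, which repairs oxidised methionine, stood at -0.33, -0.67 and -0.67 in experiments 1, 2 and 3, and PRDX3, the mitochondrial peroxiredoxin, at -0.02, -0.97 and -0.67 (limma adjusted p = 0.18 and 0.28). The fit to experiments 2 and 3 only, which leaves 1 residual degree of freedom, called both lower (limma adjusted p = 0.049 and 0.026). TXN2, the mitochondrial thioredoxin, stood at 0.31 ± 0.10 and SRXN1, a sulfiredoxin, at -0.30 ± 0.12, while a second bright TXN2 probe set stood at -0.02.

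Of the 11 NEDD4-family ligases and adaptors, 5 had a higher and 6 a lower mean, with a median of -0.003. WWP1, a ligase, stood at -0.04, -0.22 and -0.82 in experiments 1, 2 and 3 (mean -0.36 ± 0.15 SE, limma adjusted p = 0.42), and HECW2, NEDD4L and NDFIP1 at -0.17, 0.14 and -0.06. The probe sets of NEDD4L disagreed, since its 4 others at or above the median of probe sets stood at -0.33, -0.29, -0.06 and -0.01. Among 9 genes of the MYC, MAX and MXD network, some of whose proteins also dimerise with MLX, 4 had a higher and 5 a lower mean, with a median of -0.04. MXD1, a repressor partner of MAX, stood at -0.28 ± 0.11, MGA at -0.20, MAX at -0.13 and MXD3 at 0.11. The level of MXD1 was low (3.68), and its dimmer probe sets stood at 0.10 and -0.48. Other bright probe sets of MGA stood at 0.21 and -0.30, and those of MAX at -0.22 to 0.08. The 6 measured arrestin-fold relatives included 5 with a higher mean and a median of 0.08, with VPS26C at 0.22, VPS26B at 0.15, the beta-arrestin ARRB1 at 0.08 and the visual arrestin SAG at 0.08. Second probe sets of VPS26C and VPS26B stood at -0.05 and -0.15, and 1 of 6 others of ARRB1 at or above the median of probe sets was lower, at -0.13.

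Of 9 ESCRT genes, 4 had a higher and 5 a lower mean, with a median of -0.03, and with VPS4B at -0.22, VPS37A at -0.12, TSG101 at 0.08 and STAM at 0.08. A second probe set of VPS37A stood at 0.29. Of 8 genes for AMPK, the energy sensor that phosphorylates TXNIP, and its activator LKB1, 3 had a higher and 5 a lower mean, with a median of -0.05. PRKAB1, a regulatory subunit, stood at 0.08, -0.66 and -1.26 in experiments 1, 2 and 3 (mean -0.61 ± 0.21 SE, limma adjusted p = 0.34). The fit to experiments 2 and 3 only called PRKAB1 lower (limma adjusted p = 0.024). PRKAG3, PRKAA1 and PRKAB2 stood at 0.29, -0.20 and -0.14, with PRKAG3 at a low level (3.34). Of the colon epithelial markers, 8 of 10, KRT18, KRT19 and EPCAM among them, were at or above the median level of genes, whereas none of 5 leukocyte markers and 1 of 8 markers of fibroblasts and endothelium were.

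**Figure D5:**
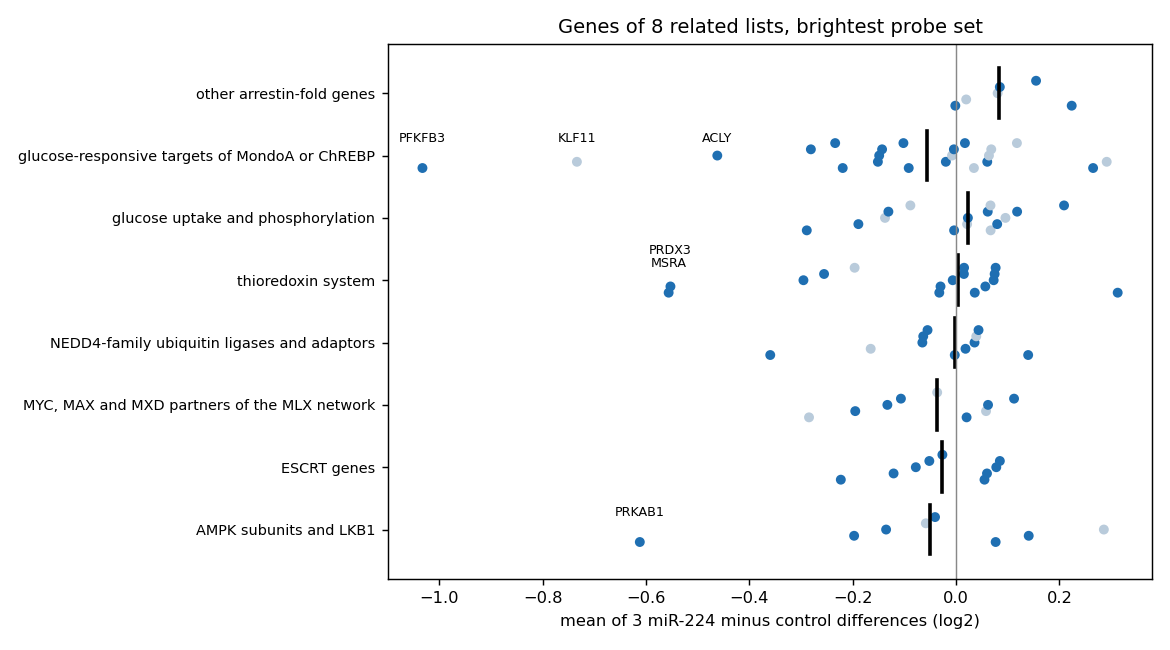
Each point is a gene of one of 8 related lists, placed by its mean miR-224 minus control difference on the log2 scale (x axis), with the list's median as a bar and genes below the median level of genes in light blue. PFKFB3 at -1.03 and KLF11 at -0.73 lie furthest from 0.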

How the data were processed

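The series holds 6 Affymetrix Human Genome U133 Plus arrays of HCT116 cells. The authors processed them with RMA and Partek, per the submitters' processing notes, with versions and settings not given in the sources used here. The deposited log2 values lay between 1.47 and 13.6, with array medians of 3.41 to 3.53. Their base is not stated and was taken as 2, the usual output of RMA. RMA makes the arrays' distributions alike, which hides a shift shared by most transcripts.

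Of the 54613 probe sets that are not controls (62 were left out), 41091 had 1 symbol, 1801 several and 11721 none. A look-up of gene identifiers in RefSeq changed 0 symbols. For each of 19775 genes the probe set of highest mean was used.

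Groups and replicate numbers came from the sample titles. Per the series text, each pair is an independent experiment. Deviations from the group means correlated at 0.902, 0.734 and 0.783 between arrays of equal number and at -0.777 to 0.474 between others, across probe sets, which are not independent. Linear models of limma 3.58.1 (R 4.3.3; lmFit, then eBayes, two-sided, Benjamini-Hochberg, threshold 0.05) were fitted with experiment as a block, leaving 2 residual degrees of freedom, over all probe sets, over all genes, and as an F test between experiments. All member probe sets are given. Of each list up to 4 genes with the smallest p are named, and the 5 genes most like ARRDC4 and TXNIP. HK2, LDHA, KLF10, SLC2A1 and TXN were named in addition for their roles, after their values were seen. The lists were written from memory, and the members and lists were chosen with earlier results of these data known. Alternatives covered the block, single experiments, scaling, a filter at the median level, variance settings and averaging over probe sets. RefSeq promoter windows matched 8 of 8 members. matplotlib 3.10.9 (Python 3.11.15) drew the figures.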

Additional observations from a re-analysis of the deposited data

How the results depend on the processing

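With 3 pairs, precision is low, and a missed threshold does not show that levels were equal. Between miR-224 and control cells, limma called 0 genes and 0 probe sets with experiment as a block, and again 0 of each without the block, where 313 genes and 1067 probe sets had an unadjusted p under 0.05 against 2169 and 5352 with it. Leaving out one experiment with its pair gave 0 to 174 genes and 0 to 137 probe sets, all of them without experiment 1, and an intensity trend with robust variances gave 56 genes and 28 probe sets. Another quantile normalization, median centring and the filter at the median level gave 0 of each, and averaging each gene's probe sets gave 0 genes. Between experiments the count of 15273 probe sets ranged from 1502, without experiment 1, to 15089 with single experiments left out, and from 13974 to 16060 under the other settings. ARRDC4 ranged from 0.44 to 0.99 with single experiments left out and was 0.69 and 0.64 under the 2 other scalings. ARRDC3 ranged from 0.25 to 0.66 and MLXIP from -0.52 to -0.38 with single experiments left out, whereas ARRDC1, ARRDC2 and TXNIP, all near 0, changed sign. Averaging the probe sets moved MLX to 0.09 and MLXIP to -0.30. For TXNIP the filter left no value, since its brightest probe set (4.19) lies below the median level of genes (4.75).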
